A study of Mus musculus with 18 samples.

Results

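Myod1, Myog, Myf5, Myf6, Mef2a, Mef2c, Mef2d, Pax7 and Six4 encode transcription factors that build and maintain skeletal muscle. These 9 genes were taken by symbol from the 43430 genes of the count table, after its Ensembl identifiers had been matched to mouse symbols, and 9 of 9 passed the filter on low counts that left 13596 genes for testing. They were compared in myofibers isolated from the quadriceps of adult C57BL/6 mice of both sexes (C57BL/6J in the study's methods), which were injected with vehicle or with prednisone on a weekly or a daily schedule. Prednisone is a synthetic glucocorticoid, and the purpose of the comparison was to set a pulsed against a daily schedule in each sex.

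Each of the 6 groups held 3 libraries, 18 in all. The groups were vehicle-treated, weekly prednisone–treated and daily prednisone–treated males, and the same treatments in females. By the study's methods each library came from a separate mouse, the drug was injected into the peritoneum over about a month, and weekly prednisone–treated mice received vehicle on the remaining days. Their last prednisone dose came days before sacrifice, whereas daily prednisone–treated mice were dosed every day. Schedule and time since the last dose therefore cannot be told apart in the daily against weekly differences. Myofibers were released with collagenase, and the fraction held back by a cell strainer was used. The labels name no transgene or deletion in these mice.

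The myogenic basic helix-loop-helix (bHLH) factors MyoD, myogenin, Myf5 and MRF4 (gene Myf6) bind E-box sequences as dimers with E proteins and switch on muscle genes. The MEF2 proteins bind an A/T-rich sequence through a MADS box, work together with the bHLH factors, and are held in check by class II histone deacetylases until calcium signals release them. Pax7 marks satellite cells, the stem cells of muscle, and Six4 acts with Eya proteins upstream of the bHLH genes. In adult fibers MRF4 is the predominant bHLH factor, whereas Myf5 and Pax7 belong mainly to satellite cells.

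Total counts ran from 10506661 to 14686654 per library, and 11.7% to 36.4% of them fell on mitochondrial genes, with the highest share in female weekly replicate 2. Markers of myofibers summed to between 115027 and 205952 CPM in each library, where CPM is the count scaled to a fixed normalized library size. None of the 10 adipocyte markers or the 14 satellite cell markers used below was at 0 in any group. Levels below are CPM, and differences are log2 fold changes with their standard error (SE) from an edgeR quasi-likelihood fit. A gene was called when its Benjamini-Hochberg adjusted p was under 0.05 over the genes tested. A mean-of-sexes difference is the average of the male and the female difference.

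Mef2a was the 1 of the 9 genes that edgeR called in any comparison. It was 1.39-fold higher in daily prednisone–treated than in vehicle-treated myofibers (mean of sexes, log2 difference 0.47 ± 0.11, edgeR adjusted p = 0.00838). It was also 1.31-fold higher in daily than in weekly prednisone–treated myofibers. The other 8 factors, MyoD, myogenin and Pax7 among them, passed no edgeR test, and 0 of 9 were called after weekly prednisone, where 0% of all genes were. Among all genes tested, 15% were called in the daily comparison, so 1 of 9 members lay near that background. The Mef2a call was lost when each library's trends on gene length and GC content were removed, which is given with its values below.

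The 3 MEF2 genes are close copies at their coding start, so their sequences are shown to let a reader see how far reads could tell them apart. The first 171 coding bases, 57 codons that encode the MADS box, are given 5′ to 3′ from the GENCODE M21 transcripts (mm10), with capitals marking each base that differs from Mef2a.
Mef2a: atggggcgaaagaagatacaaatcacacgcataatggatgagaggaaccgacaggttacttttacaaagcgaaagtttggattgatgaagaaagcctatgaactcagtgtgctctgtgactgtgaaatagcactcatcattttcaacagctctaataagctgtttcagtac
Mef2c: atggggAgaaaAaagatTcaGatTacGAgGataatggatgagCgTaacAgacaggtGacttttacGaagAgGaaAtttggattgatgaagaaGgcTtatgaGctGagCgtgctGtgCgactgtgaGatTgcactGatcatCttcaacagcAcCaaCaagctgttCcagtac
Mef2d: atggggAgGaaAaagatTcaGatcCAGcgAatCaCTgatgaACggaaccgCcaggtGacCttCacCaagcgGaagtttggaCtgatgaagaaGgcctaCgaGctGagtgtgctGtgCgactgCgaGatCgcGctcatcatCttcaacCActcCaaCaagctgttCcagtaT

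Mef2c differed from Mef2a at 31 of these 171 bases and Mef2d at 38. The stretch lies in exons 3 and 4 of the Mef2a transcript on the minus strand (chr7:67316792-67316845 and chr7:67295462-67295578). In Mef2c it lies in exons 3 and 4 on the plus strand (chr13:83575677-83575730 and chr13:83592778-83592894). In Mef2d it lies in exons 2 and 3 on the plus strand (chr3:88155809-88155862 and chr3:88156322-88156438). Across the transcripts of all 9 members, the longest run of bases shared by any pair was 28, between Mef2c and Mef2d.

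As Mef2a was the called gene, the bases before its start site are shown as well, from the RefSeq promoter table (GRCm38.p6, minus strand, chr7:67372851-67373008, positions -150 to 8 from the start site). Capitals mark the match to the MEF2 consensus.
Mef2a promoter: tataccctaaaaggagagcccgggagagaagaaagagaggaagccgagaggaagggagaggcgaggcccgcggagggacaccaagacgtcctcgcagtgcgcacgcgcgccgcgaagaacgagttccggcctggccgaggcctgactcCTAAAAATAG

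The match covers positions -2 to 8, at the first transcribed bases. Windows of 300 bases, from 250 before to 50 after the start, were searched on both strands, and 3.19% of all 32851 promoters held the MEF2 consensus. Of the members, 7 of 9 had a promoter in the table, 10 promoters in all, and Mef2a was the one with this match. Only full matches were counted, so a site that departs from the consensus at any base was missed. E-boxes (CANNTG, a palindrome) were present in Myog, which had 2, and in 2 of the 3 Mef2c promoters, against 72.3% of all promoters. The glucocorticoid response element consensus (ACANNNTGT, a palindrome) occurred in 0 of the 10 member promoters and in 6.85% of all promoters, which says only that these letters are not in these windows. Myod1 and Myf6 were not among the promoters used.

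In vehicle-treated myofibers the 9 factors differed widely in level per kilobase of exon. Myf6 led with 56.2 ± 16.8 CPM per kb (SD, n = 6), followed by Mef2d at 30.5 ± 2.66 and Mef2c at 16.7 ± 2.95. Myod1 (7.39 ± 2.21), Myog (6.67 ± 3.80) and Mef2a (5.31 ± 1.01) formed a middle group. Six4 (1.36 ± 0.395), Pax7 (0.901 ± 0.420) and Myf5 (0.605 ± 0.157) were lowest. The vehicle libraries of neighbors in this order overlapped, except between Mef2d and Mef2c, between Mef2c and Myod1, and between Mef2a and Six4. Myf6 and Mef2d overlapped through a single low Myf6 library, female vehicle replicate 3. Lengths are the union of exons in GENCODE M21, because the deposited length column counts exons again for each transcript that shares them. The order depends on this length, which covers 31 transcripts for Mef2c, 12 for Mef2a and 1 for Myf6. By CPM alone the vehicle means were 263 for Mef2c, 183 for Mef2d, 78.0 for Mef2a and 71.0 for Myf6.

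**Figure D1:**
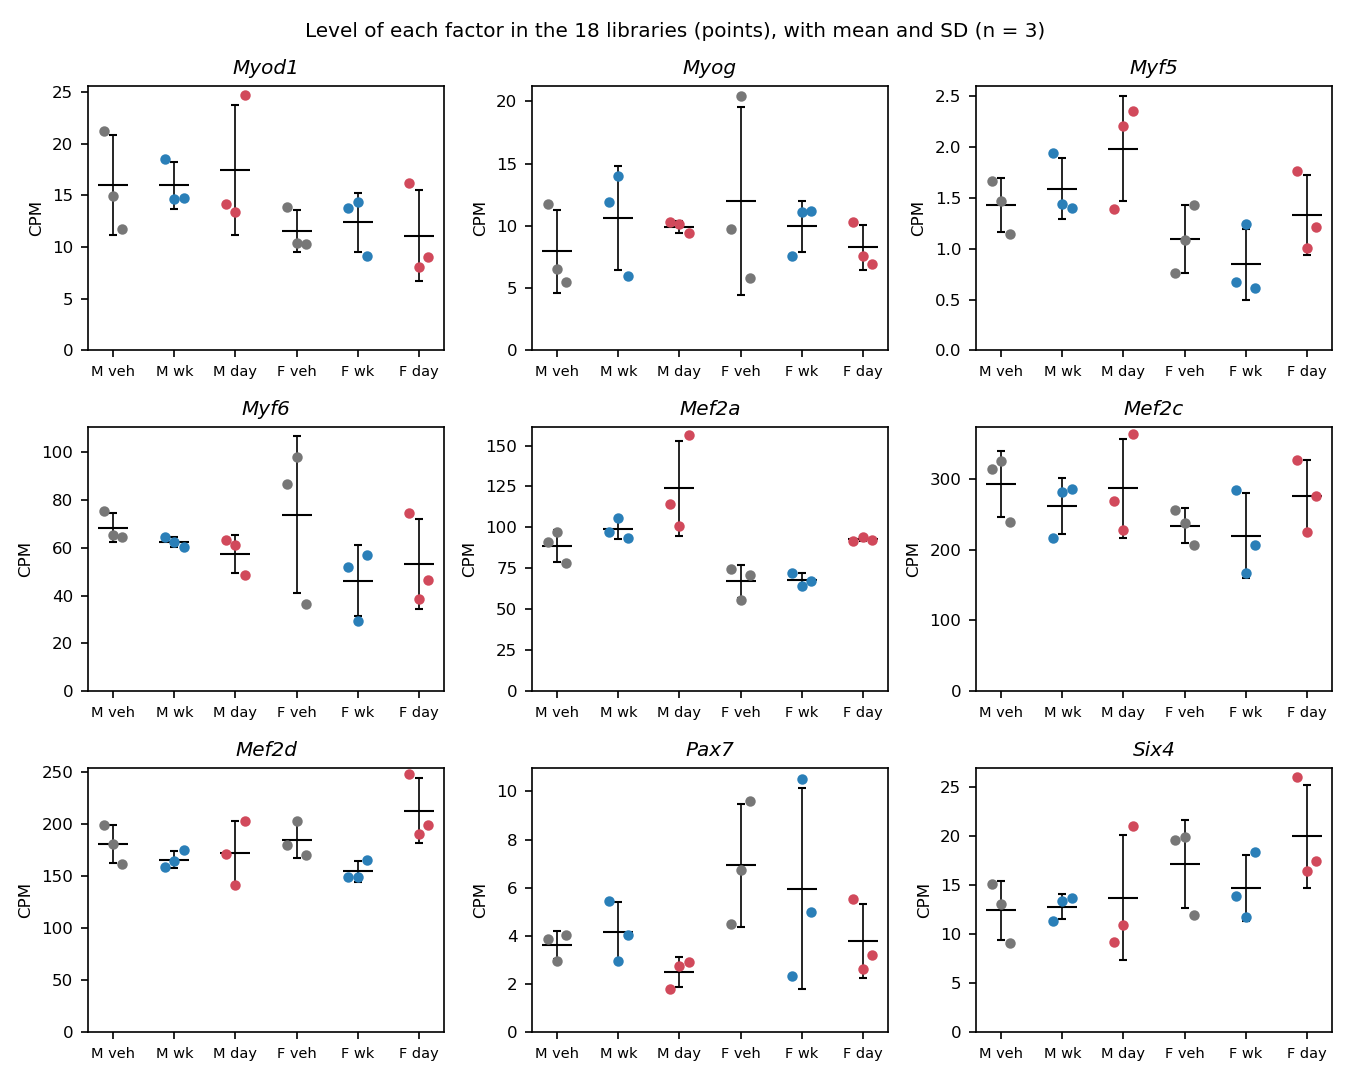
Level of each of the 9 factors in the 18 libraries, in CPM (y axis, from 0), by sex (M, F) and treatment (veh, vehicle; wk, weekly; day, daily prednisone), with points for libraries and bars for the mean and SD of 3. The 6 daily Mef2a points lie above the 3 vehicle points of their own sex, while the groups of most other factors overlap.

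Among the bHLH factors, Myod1 (chr7:46376474-46379092, plus strand) encodes MyoD, the factor that can convert other cells into muscle. Its level was 11.8 to 21.2 CPM in vehicle-treated males, 14.6 to 18.6 in weekly and 13.4 to 24.7 in daily prednisone–treated males. In females it was 10.3 to 13.9 with vehicle, 9.10 to 14.4 with weekly and 8.12 to 16.2 with daily prednisone. The treatment groups overlapped within each sex, and the daily against vehicle difference, mean of sexes, was 0.03 ± 0.21 with a 95% interval of -0.42 to 0.47. The interval therefore still holds changes of up to 1.39-fold upward and down to 0.747 of vehicle.

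Myog (chr1:134289989-134292548, plus strand) encodes myogenin, which drives myoblasts to fuse into fibers and rises when a fiber loses its nerve. It spanned 5.52 to 11.8 CPM in vehicle-treated males and 5.82 to 20.4 in vehicle-treated females. Daily prednisone–treated males held 9.40 to 10.3 CPM and daily prednisone–treated females 6.95 to 10.3. The daily values lay inside the range of the vehicle libraries. The male difference pointed up (0.32 ± 0.40) and the female difference down (-0.53 ± 0.40), and the difference between the sexes, female minus male, was -0.85 ± 0.56 (edgeR adjusted p = 0.889). With weekly prednisone the level was 5.99 to 14 CPM in males and 7.57 to 11.2 in females, again overlapping vehicle.

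Myf5 and Myf6 lie 6725 bases apart on the minus strand of chromosome 10, at chr10:107482908-107486134 and chr10:107492860-107494729. Myf5, the earliest bHLH factor of the embryo, was the sparsest of the 9 genes, with 8 to 35 counts per library. Its level stayed between 0.617 and 2.35 CPM over the 18 libraries. The daily against vehicle difference was 0.45 ± 0.34 in males and 0.27 ± 0.36 in females, with overlapping libraries in both.

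Myf6 was at 75.3, 65.1 and 64.5 CPM in vehicle-treated males and at 64.3, 62.5 and 60.3 in weekly prednisone–treated males. Daily prednisone–treated males were at 63.2, 60.9 and 48.5 CPM. Every weekly and every daily male library thus lay below the lowest vehicle library, by a small margin for the highest of them, and the differences were -0.13 ± 0.31 for weekly and -0.25 ± 0.31 for daily prednisone. Females were more scattered, with 86.7, 98.0 and 36.5 CPM after vehicle, 52.0, 29.6 and 57.1 after weekly and 74.5, 38.5 and 46.3 after daily prednisone. Female vehicle replicate 3 fell among the treated libraries. In weekly prednisone–treated females the Myf6 difference was -0.67 ± 0.31 (edgeR adjusted p = 0.626), which did not pass. Without female vehicle replicate 2 it was -0.44, and without female vehicle replicate 3 it was -1.01.

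Mef2a (chr7:67231163-67372858, minus strand), a MEF2 gene of adult muscle and heart, was at 90.9, 97.5 and 78.2 CPM in vehicle-treated males. Weekly prednisone–treated males were at 97.1, 106 and 93.8 CPM, and daily prednisone–treated males at 114, 101 and 156. The daily male libraries were all above the vehicle males, although daily replicate 2 stood below the highest weekly library. In females the values were 74.7, 55.9 and 70.9 CPM with vehicle, 72.2, 64.3 and 67.5 with weekly, and 91.8, 94.5 and 92.6 with daily prednisone. The 3 daily female libraries lay close together and above all vehicle and weekly female libraries.

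The size of the Mef2a difference was nearly the same in the sexes, at 0.48 ± 0.15 in males and 0.47 ± 0.15 in females. Neither sex alone passed (edgeR adjusted p = 0.0707 and 0.131), whereas males were called by DESeq2 (adjusted p = 0.0411) and by edgeR without female vehicle replicate 2 (adjusted p = 0.0423). The female minus male difference of these responses was -0.01 ± 0.22, with a 95% interval of -0.47 to 0.45. In the mean of sexes the 95% interval of the daily against vehicle difference was 0.24 to 0.70, and the call held with each of the 18 libraries left out in turn (log2 difference 0.39 to 0.54). Against weekly prednisone the difference was 0.39 ± 0.11 (edgeR adjusted p = 0.0370), where 8.17% of all genes tested were called. That call was lost with a replicate block (adjusted p = 0.0697). It was also lost without male weekly replicate 1 or 3, male daily replicate 1 or 3, female weekly replicate 3, or female daily replicate 2 or 3 (highest adjusted p = 0.0737).

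Removing the trend of each library on exon length and GC content, an alternative chosen after the data had been seen, took the Mef2a difference to 0.15 ± 0.11 against vehicle (adjusted p = 0.461). Against weekly prednisone it became 0.15 ± 0.11 (adjusted p = 0.532). The same step lowered the number of all genes called from 2033 to 761 in the daily against vehicle comparison and from 1111 to 105 in the daily against weekly comparison. Mef2a has 14681 exon bases, nearly as many as Mef2c with 15715 and far more than the 1263 of Myf6. Whether the trend is technical or part of the response was not tested.

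**Figure D2:**
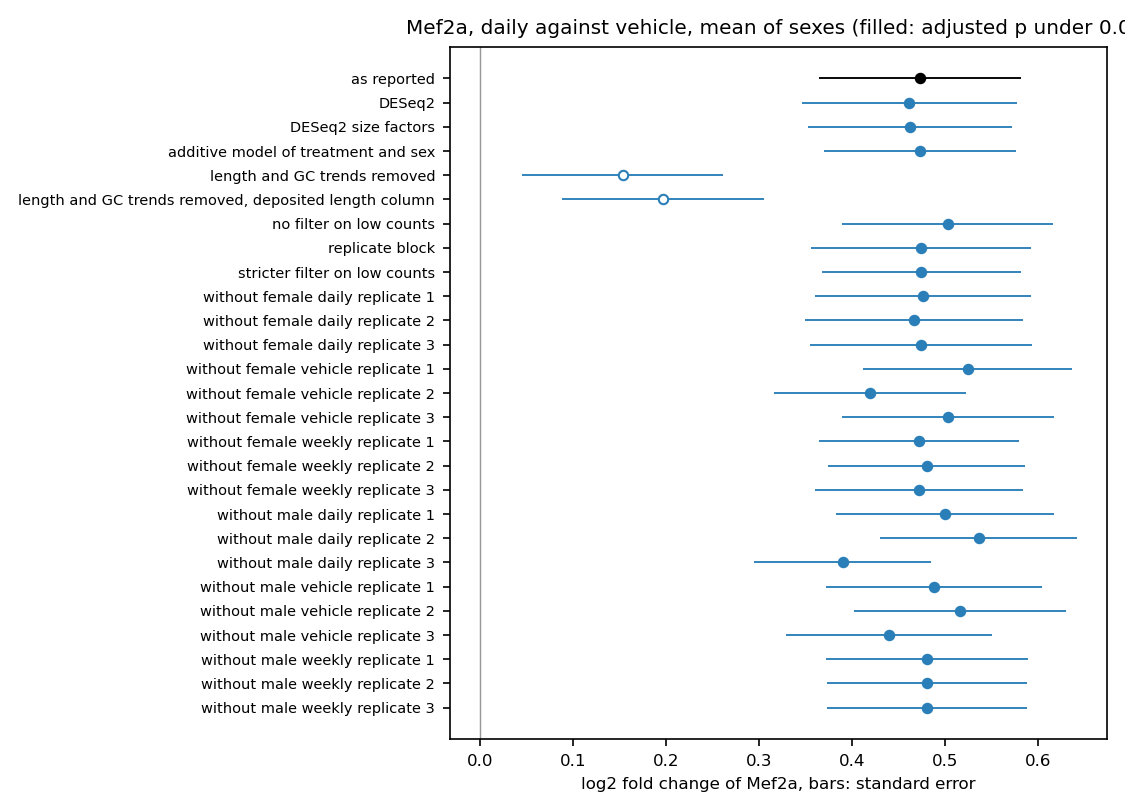
Log2 fold change of Mef2a (x axis) in daily against vehicle, mean of sexes, under each way of processing the counts (y axis), with standard errors as bars and filled points where the adjusted p was under 0.05. The value stays between 0.39 and 0.54 except when length and GC trends are removed, where it is 0.15, or 0.20 with the deposited length column.

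The summed level of the 10 adipocyte markers was 581 to 1097 CPM in vehicle-treated males and 1006 to 2389 in daily prednisone–treated males. In females it was 1459 to 1595 with vehicle and 2535 to 6322 with daily prednisone. In the mean of sexes 7 of the 10 markers were called higher, beside 7.48% of all genes tested. In weekly prednisone–treated females the same sum reached 1745 to 8400 CPM while Mef2a stayed at 64.3 to 72.2. Weekly prednisone–treated males had a sum of 967 to 1792 CPM, with Mef2a at 93.8 to 106. The part of adipocyte RNA in the Mef2a difference was not tested.

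The Mef2a locus also holds Lysmd4 on the opposite strand, whose exons share 302 bases, 2.06%, with those of Mef2a. Lysmd4 lay between 4.32 and 8.71 CPM and differed by -0.11 ± 0.17 in the daily comparison. The strand setting of the counting is not given in the sources used here, so reads of the shared bases cannot be assigned to either gene.

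Mef2c (chr13:83504034-83667079, plus strand), the MEF2 gene of developing muscle and heart, had the highest CPM of the 9 genes, 167 to 363. Vehicle-treated males were at 239 to 325 CPM and daily prednisone–treated males at 228 to 363. Females were at 207 to 256 CPM with vehicle and 225 to 326 with daily prednisone. The groups overlapped, and the daily against vehicle difference was 0.10 ± 0.15 (95% interval -0.22 to 0.43). Weekly prednisone gave -0.13 ± 0.15.

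Mef2d (chr3:88142372-88172086, plus strand), which has a muscle-specific splice form, was at 180, 203 and 170 CPM in vehicle-treated females. Weekly prednisone–treated females were at 149, 149 and 166 CPM, and daily prednisone–treated females at 249, 191 and 200. The weekly female libraries were all below vehicle and the daily female libraries all above weekly. The daily against weekly difference in females was 0.46 ± 0.15 (edgeR adjusted p = 0.127), and DESeq2 called it (0.45, adjusted p = 0.0479). Without female daily replicate 1 it was 0.34. In males the libraries of the 3 treatments overlapped, between 141 and 203 CPM, and the daily against weekly difference was 0.05 ± 0.15. The antisense gene 1700113A16Rik shares 531 exon bases, 8.87%, with Mef2d and had 1 to 11 counts per library.

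Pax7 (chr4:139737062-139833528, minus strand) was at 3.86, 2.94 and 4.06 CPM in vehicle-treated males and at 1.81, 2.77 and 2.94 in daily prednisone–treated males. Weekly prednisone–treated males were at 5.45, 2.98 and 4.04 CPM. The daily male libraries lay below the vehicle and weekly males by a narrow margin. In females Pax7 was at 4.49, 6.74 and 9.58 CPM with vehicle, 2.35, 10.5 and 5.01 with weekly, and 5.53, 2.64 and 3.20 with daily prednisone. The female groups overlapped, and female weekly replicate 2 held the highest value of the 18 libraries.

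The Pax7 difference was -0.71 ± 0.32 in daily against vehicle, mean of sexes, with a 95% interval of -1.39 to -0.03, and it did not pass (edgeR adjusted p = 0.151). Against weekly prednisone it was -0.69 ± 0.32 (edgeR adjusted p = 0.195), and -0.33 without female weekly replicate 2. In bulk samples fewer satellite cells and less Pax7 RNA per satellite cell cannot be told apart. Of 14 other satellite cell markers, 0 were called in the daily comparison by edgeR or DESeq2, beside 15% of all genes called by edgeR. At an unadjusted p under 0.05, which at least those 15% of all genes also had, there were 0 as well. A change in the number of satellite cells was not tested. Without Des and Itga7, which fibers also express, these markers summed to 228 to 323 CPM in vehicle-treated and 239 to 327 in daily prednisone–treated males. In females the sum was 272 to 347 with vehicle, 137 to 423 with weekly and 207 to 309 with daily prednisone. Pax7 lay between 1.81 and 10.5 CPM over all libraries, far below these sums, so a steady sum does not show a steady number of satellite cells.

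Six4 (chr12:73099609-73113456, minus strand), a homeobox factor active in fast fibers, was at 9.16 to 15.1 CPM in vehicle-treated and 9.25 to 21.1 in daily prednisone–treated males. In females it was at 12 to 19.9 CPM with vehicle and 16.4 to 26.0 with daily prednisone. The groups overlapped, and the difference was 0.17 ± 0.21 (95% interval -0.27 to 0.62). With weekly prednisone it was -0.09 ± 0.21.

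**Figure D3:**
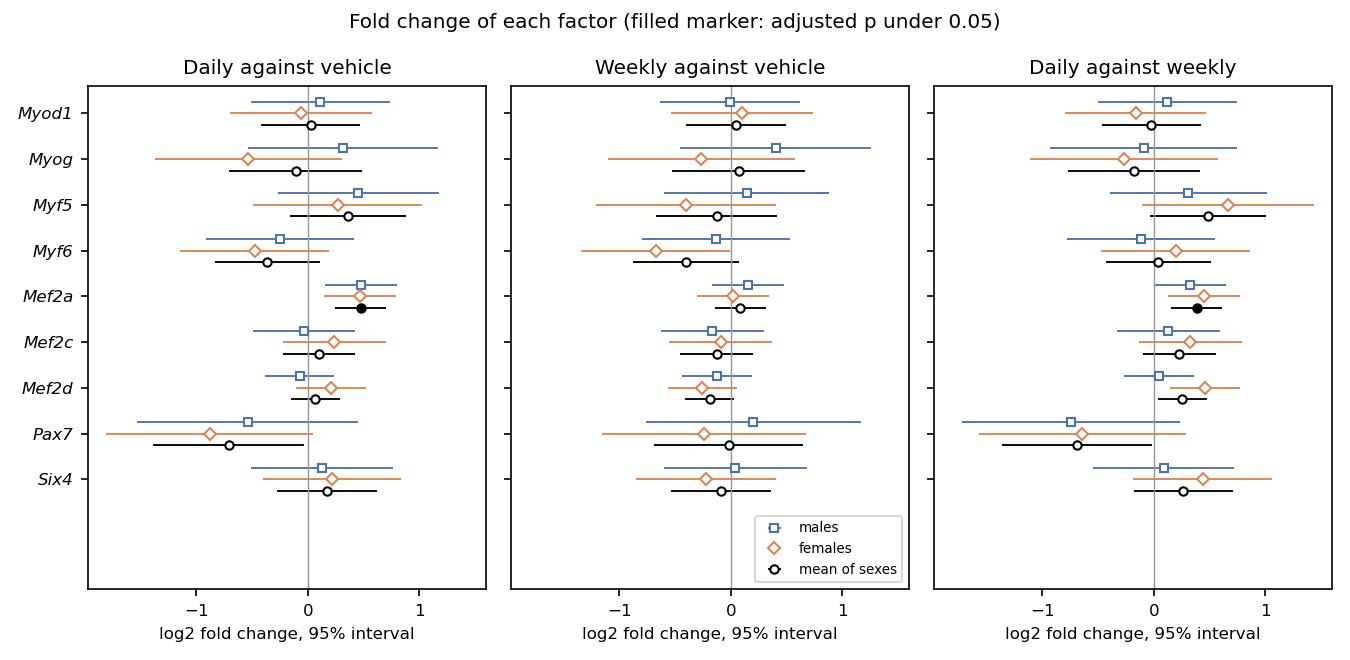
Log2 fold change of each factor (y axis) with its 95% interval (x axis) in males, females and the mean of sexes for 3 comparisons, with filled markers where the adjusted p was under 0.05. Mef2a in the mean of sexes is filled for daily against vehicle (0.47) and daily against weekly (0.39), and no marker is filled for weekly against vehicle.

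By comparison, 3 of 9 members had daily male libraries wholly above or below the vehicle males (Mef2a above, Myf6 and Pax7 below), against 33.4% of all genes tested. In females this held for 1 of 9, Mef2a, against 23.1%. After weekly prednisone the libraries did not overlap vehicle for Myf6 in males (16.7% of all genes) and Mef2d in females (8.07%), 1 of 9 each. With 9 members, 1 gene more or less moves such a share by much, so no difference from the shares of all genes is read from these counts. Within a sex edgeR called 0 of 9 in the daily comparison, where it called 6.46% of all genes in males and 0.382% in females. At an unadjusted p under 0.05 there was 1 member, Mef2a, in each sex, beside 22.8% of all genes in males and 17.3% in females. The median log2 difference of the members was 0.07 in daily against vehicle, mean of sexes, beside 0.02 over all genes tested, and the members ranged from -0.71 to 0.47.

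After weekly prednisone, 0 of 9 members were called in males, in females or in the mean of sexes by edgeR or by DESeq2. At an unadjusted p under 0.05 there were 0 in males (5.71% of all genes), 1 in females (Myf6, 7.97% of all genes) and 0 in the mean of sexes, where 11% of all genes fell under that level. The smallest edgeR adjusted p in the mean of sexes was 0.520. The 95% intervals of the 9 mean-of-sexes differences ran from -0.87 at the lowest, for Myf6, to 0.67 at the highest, for Myog. The median of the members was -0.09, beside 0.02 over all genes.

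The direct comparison of schedules within a sex called 0 of 9 members by edgeR, with unadjusted p under 0.05 for 1 in males (13.5% of all genes) and 2 in females (17.7% of all genes), whereas DESeq2 called 0 in males and 1 in females, Mef2d. Daily and weekly libraries did not overlap for 1 of 9 members in males (Pax7, 24.5% of all genes) and for 2 of 9 in females (Mef2a and Mef2d, 17.2%). In the mean of sexes the median of the members was 0.23, beside -0.02 over all genes.

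The responses of the sexes were set against each other by the interaction of sex and treatment. For both schedules 0 of 9 members were called by edgeR or DESeq2, and 0 had an unadjusted p under 0.05, beside 4.69% of all genes for daily and 2.63% for weekly prednisone. The signs of the daily differences were shared by males and females for 5 of 9 members, and those of the weekly differences for 4 of 9.

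Vehicle-treated females and males were compared as the baseline. Mef2a was lower in the 3 female than in the 3 male libraries (-0.40 ± 0.15, edgeR adjusted p = 0.337). Pax7 was higher in all female than in all male libraries (0.93 ± 0.45, edgeR adjusted p = 0.481). Neither passed, and 0 of 9 members were called by edgeR or DESeq2, with 0.765% of all genes called and 18.9% not overlapping between the sexes. At an unadjusted p under 0.05 there was 1 member, Mef2a, beside 10.4% of all genes.

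The genes around these factors were read from lists. Of 15 tested partners and inhibitors of bHLH factors, 1 was called higher and 0 lower in daily against vehicle, mean of sexes, beside 7.48% higher and 7.47% lower over all genes tested. This was Id4, an inhibitor that binds E proteins without binding DNA, at 1.01 ± 0.30 (edgeR adjusted p = 0.0325). Male libraries held 1.14 to 1.87 CPM with vehicle and 3.06 to 4.97 with daily prednisone, and female libraries overlapped at 1.63 to 2.96 and 2.15 to 5.60 CPM. Neither sex alone passed, with 1.39 ± 0.44 in males (edgeR adjusted p = 0.0667) and 0.62 ± 0.41 in females (edgeR adjusted p = 0.458). The list's median was -0.00445, beside 0.02 over all genes.

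Of 11 tested Pax, Eya and Six4-related genes, 1 was called higher and 0 lower. Eya4, a coactivator that binds Six4 and its relatives, rose in daily prednisone–treated males by 1.25 ± 0.29 (edgeR adjusted p = 0.0204), from 7.60 to 14.4 CPM with vehicle to 20.6 to 41.7. In females it was at 8.26 to 11.9 CPM with vehicle and 15.5 to 19.4 with daily prednisone, without overlap, and the difference of 0.73 ± 0.29 did not pass (edgeR adjusted p = 0.205). The list's median was -0.09. In the mean of sexes the Eya4 difference was 0.99 ± 0.20 (adjusted p = 0.00480), and against weekly prednisone 0.73 ± 0.20 (adjusted p = 0.0356).

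Of 25 tested MEF2 regulators, 3 were called higher and 1 lower in the daily comparison, and the list's median was 0.11. Ep300, a histone acetyltransferase recruited by MEF2 and MyoD, was higher by 0.59 ± 0.09 (edgeR adjusted p = 0.000718). Its libraries did not overlap in either sex, with 31.1 to 33.1 CPM in vehicle-treated and 44.6 to 60.9 in daily prednisone–treated males, and 28.0 to 32.8 and 40.5 to 47.3 in females. Ncoa2, a coactivator shared by MEF2 and steroid receptors, was higher by 0.46 ± 0.10, and Camk2d, a calcium-calmodulin kinase, by 0.34 ± 0.09. Tead4, a factor downstream of MyoD, was lower (-0.60 ± 0.16). Ep300 and Camk2d were also called against weekly prednisone, at 0.47 ± 0.08 and 0.33 ± 0.09. The class II deacetylases that repress MEF2 were not called, with Hdac4 at -0.17 ± 0.15, Hdac5 at 0.05 ± 0.09, Hdac7 at -0.02 ± 0.17 and Hdac9 at -0.20 ± 0.27.

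Of 31 tested textbook targets of the bHLH and MEF2 factors, 3 were called higher and 4 lower, with a median of 0.05. Those called higher were Myh8, the perinatal myosin (1.01 ± 0.26), Musk, the kinase that organizes the neuromuscular synapse (0.92 ± 0.22), and Rb1, a cell cycle inhibitor (0.58 ± 0.16). Those lower were Tnni2, the fast troponin I (-0.71 ± 0.15), the glycolytic enzyme gene Pgam2 (-0.70 ± 0.15), and Myl1 (-0.60 ± 0.17) and Mylpf (-0.58 ± 0.15), both myosin light chains of fast fibers. Mylpf falls outside the naming rule and was added after its value was seen. Of 12 tested denervation and regeneration genes, 2 were called higher, the same Myh8 and Musk, and 0 lower. With weekly prednisone 0 genes of these 5 lists were called by edgeR or DESeq2, in either sex or in the mean of sexes. At an unadjusted p under 0.05 in the mean of sexes, which 11% of all genes had, there were 0 of 15 bHLH partners, 1 of 11 Pax, Eya and Six4-related genes (Six2, lower) and 2 of 25 MEF2 regulators (Hdac4 and Camk2b, both lower). Of the 31 targets there were 6, of which 3 were higher and 3 lower. Of the 12 denervation genes there were 5, with Myh3 higher (1.52 ± 0.58) and Trim63 (-1.16 ± 0.38), Fbxo32 (-0.93 ± 0.31), Hdac4 (-0.41 ± 0.15) and Gadd45a (-0.38 ± 0.13) lower. These genes were named after their values were seen, and the smallest edgeR adjusted p among the 5 was 0.270. In daily against vehicle, Trim63 was at 0.30 ± 0.52 in males and -0.87 ± 0.53 in females, and was not called. Fbxo32 was at 0.03 ± 0.43 in males and -0.82 ± 0.43 in females, and was not called either. By qPCR the study reported both genes unchanged after weekly and raised after daily prednisone.

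With the length and GC trends removed, Ep300 (0.41), Eya4 (0.72), Musk (0.94) and Tead4 (-0.58) kept an adjusted p under 0.05 in the daily against vehicle comparison. Ncoa2, Camk2d, Rb1, Id4, Myh8, Tnni2, Pgam2, Myl1 and Mylpf lost it, and Camk2d moved from 0.34 to 0.01. In the daily against weekly comparison Ep300, Eya4, Camk2d and Musk lost it too. With the deposited length column, Id4, Myh8 and Tnni2 kept it against vehicle and Musk lost it (adjusted p = 0.0508).

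**Figure D4:**
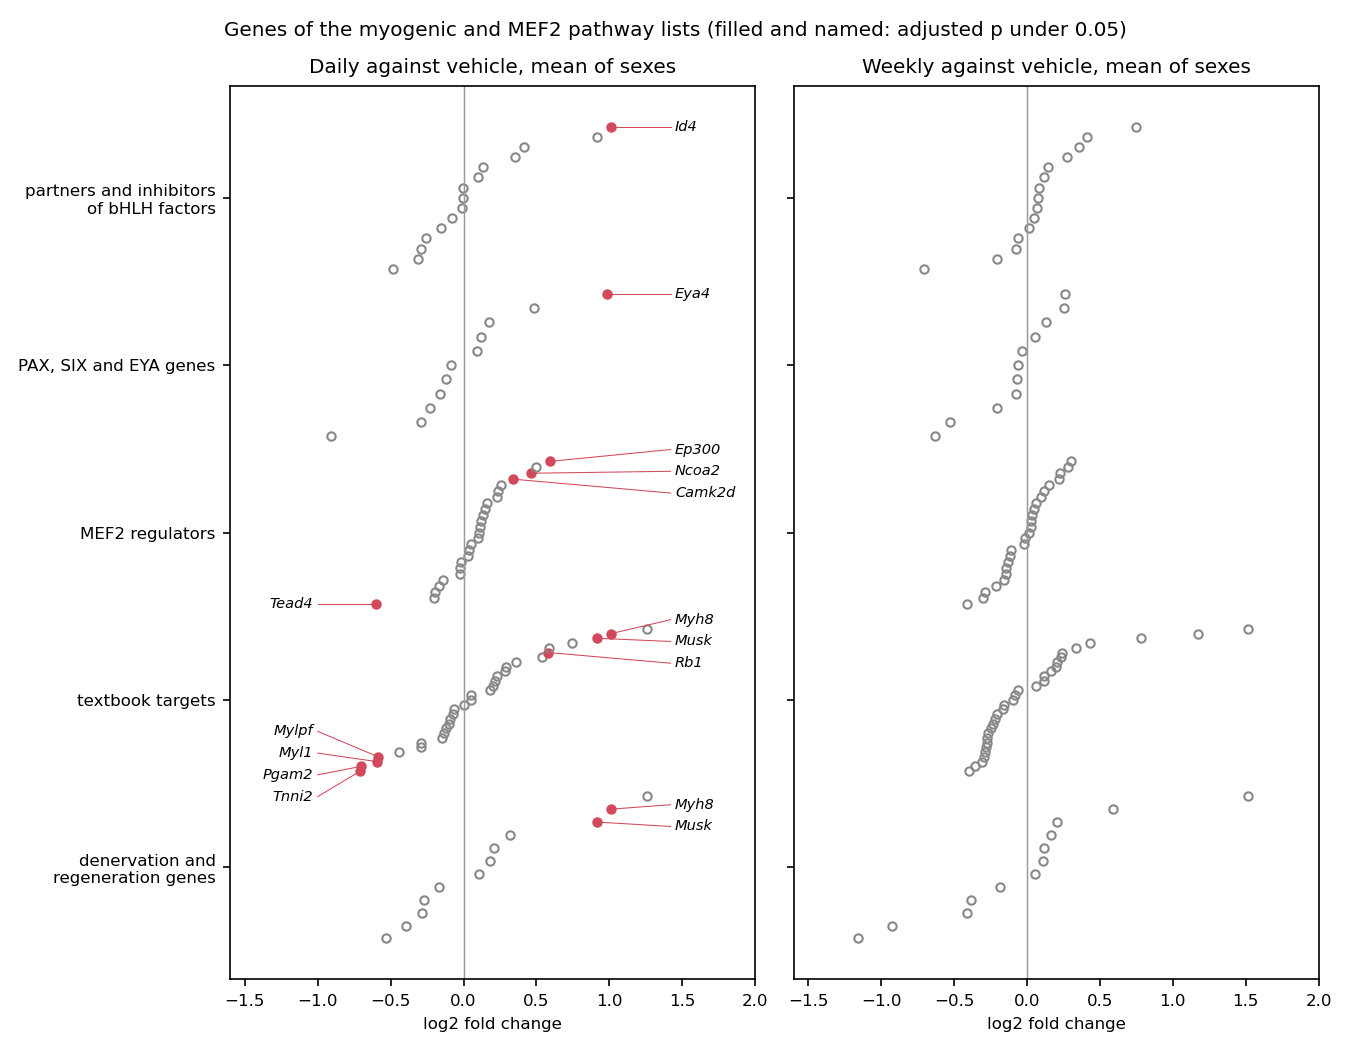
Log2 fold change (x axis) of each tested gene in 5 lists of genes around the 9 factors (y axis), in daily (left) and weekly (right) against vehicle, mean of sexes, with genes ordered by value within a list. Filled and named points had an adjusted p under 0.05, and the right panel holds 0 of them.

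Genes whose log2 CPM followed a member most closely over the 18 libraries were listed as a description, since libraries share depth and composition. Mef2a went with Mtmr6 (Pearson r = 0.946), Zfr (r = 0.945) and Kif16b (r = 0.945). Mef2c went with 1700020I14Rik (r = 0.971), Mef2d with Klhl21 (r = 0.911) and Six4 with Ythdf2 (r = 0.887). For Pax7 the closest was Fgfr4 (r = 0.864), a receptor of satellite cells, with Plxdc1 (r = 0.856) and Phf23 (r = 0.856) next. For Myf5 the closest was Nwd1 (r = 0.878) and for Myf6 Spag5 (r = 0.894). Myod1 went with Zmiz2 (r = 0.824) and Myog with Gm15501 (r = 0.781), the lowest of the 9. Among the members, Mef2d and Six4 were the closest pair within groups (r = 0.820), with r = 0.755 over the 18 libraries as a whole. Myf5 and Pax7, both satellite cell genes, had r = 0.801 within groups but -0.03 over the libraries as a whole. Of the 36 member pairs, 28 had a positive r within groups.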

How the data were processed

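Polyadenylated RNA of isolated quadriceps myofibers was sequenced in 18 libraries, 3 for each of 6 groups of sex and treatment. The values used are the deposited counts per gene, which the authors had made from reads aligned to mm10. The submitters' processing notes name TopHat2 2.1.0, Bowtie2 2.2.6 and HTSeq, and list mm9 beside mm10. The annotation release and the strand setting of the counting are not given in the sources used here.

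Groups were read from the labels, and replicate numbers from the sample titles. Of 43430 identifiers, 42462 matched a symbol. Genes were kept by edgeR's expression filter with a minimum count of 10, which left 13596. TMM normalization and quasi-likelihood tests were run in edgeR 4.0.16 (R 4.3.3, with limma 3.58.1) on all 6 groups in a single fit, with Benjamini-Hochberg adjustment over all genes tested and a threshold of 0.05. Log2 CPM used a prior count of 2. The procedure was also run on counts simulated from the spread of this same fit. They held no trend on length or GC content, so that run does not bear on such trends. Total counts of 10506661 to 14686654 set the counting error, which was largest for Myf5 at 8 to 35 counts.

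DESeq2 1.42.0, other filters and scalings, a replicate block, an additive model and the omission of each library were run as alternatives. Removal of length and GC trends, with either length measure, and a block confined to the female daily and weekly libraries were added after the data had been seen. Lengths are the union of GENCODE M21 exons, since the deposited length column equals the exons summed over transcripts for 30933 genes and is longer than the gene itself for 1982.

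Same-numbered libraries deviated from their group means with correlations of -0.32 to 0.50. In the female daily and weekly libraries these were 0.44 to 0.50 and each library went best with its own number. Over all 18 same-number pairs, 7 did so. A block on that number was therefore added for these libraries alone, and whether they were paired was not tested. This number is the replicate number of the sample titles. It differs from the numbers in most of the deposited column names. No label ties it to a shared litter, batch or day, so any pairing would rest on the correlations alone. The members and lists were chosen with earlier results of these data known. All 9 members were described, and from each list the 3 called genes with the largest change in each direction were named. Of the genes of most similar pattern, 3 are given for Mef2a and for Pax7, and the closest gene for each other member.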

Additional observations from a re-analysis of the deposited data

How the results depend on the processing

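The number of the 9 members called stayed as reported in most alternatives. In daily against vehicle, mean of sexes, 1 member (Mef2a) became 0 with length and GC trends removed, by either length measure, at a Mef2a difference of 0.15 (adjusted p = 0.461) or 0.20 with the deposited length column (adjusted p = 0.301). In daily against weekly, mean of sexes, 1 became 0 in the same settings (0.15 and 0.18), and the count ran from 0 to 1 with a library left out. In daily against vehicle males 0 became 1 (Mef2a) with DESeq2, and ran from 0 to 1 with a library left out, and in daily against weekly females 0 became 1 (Mef2d) with DESeq2. The cause was not tested. No called member changed sign.

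With a replicate block, the members called in daily against weekly, mean of sexes, fell from 1 to 0 (Mef2a 0.39, adjusted p = 0.0697), and no other count of members changed. All genes called in daily against vehicle females went from 52 to 0 and in vehicle females against males from 104 to 19. No label gives any group pair more than a shared number, and over all 18 same-number pairs 7 went best with their own number. In the female daily and weekly libraries, a block on the title number took all genes called from 0 to 522, with Mef2a at 0.45 (adjusted p = 0.0978) and 0 members called. That block was chosen after the data had been seen, for the correlations of these same libraries. The rise to 522 is therefore not read as an effect of the schedules.

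Over all genes, DESeq2 called 1383 genes against 878 in daily males, 530 against 52 in daily females, 152 and 183 against 0 in weekly females and the weekly mean of sexes, 1 against 0 in weekly males, 225 and 546 against 0 in daily against weekly males and females, 235 against 104 between vehicle-treated sexes, and 2 against 0 for the sex difference of the daily response. With length and GC trends removed, daily males had 59 called, daily females 0, the daily mean of sexes 761 and daily against weekly 105, or 221, 0, 1041 and 202 with the deposited length column. Without a filter, daily females had 29 called and daily against weekly 8 in males and 23 in females, where a stricter filter gave 28. Leaving out a library gave 92 to 1305 in daily males, 0 to 299 in daily females and 1340 to 2475 in the daily mean of sexes.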
